A study of Mus musculus with 6 samples.

Results

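The 10 genes described here encode enzymes that make serine and that pass its carbon to folate. They are Phgdh, Psat1 and Psph of serine synthesis, Shmt1 and Shmt2 of the step from serine to glycine, and Mthfd1, Mthfd2, Mthfd1l, Mthfd2l and Aldh1l2 of folate interconversion. Each was taken by its symbol as a row of a count table with 43280 rows, and all 10 were among the 18606 rows that reached a total of 10 counts across the libraries. The set was selected on the contrast between the libraries labelled DKO and those labelled WT, in which Psat1 and Mthfd2 were already known to be among the largest increases. The values of the 10 genes in that contrast are therefore given as a description, with no p-value, and their number past the threshold supports nothing further.

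RNA was sequenced from submandibular glands (SMGs) of female mice, with 3 libraries labelled wildtype (WT 1, WT 4 and WT 5) and 3 labelled DKO (DKO 1, DKO 4 and DKO 5). In DKO mice both Hs3st3a1 and Hs3st3b1 were inactivated on a C57BL/6 background, the former by a short frameshift deletion in exon 1 made with zinc finger nucleases and the latter by a LacZ cassette. Both encode enzymes that add a sulfate to heparan sulfate, and both alleles were constitutive, so every cell of the mouse carried them. The study kept several founder lines with different deletions, and describes the glands as adult. The labels do not say from which line these glands came, the age of the mice, or whether each gland came from a separate animal. P-values therefore measure only the spread between these samples, which may be technical.

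Libraries held between 23674258 and 29611975 counts, and their size factors were between 0.867 and 1.12. The targeted genes did not separate the groups. Hs3st3a1 had 15, 11 and 15 counts in WT 1, 4 and 5 against 11, 8 and 13 in DKO 1, 4 and 5, and Hs3st3b1 had 173, 203 and 261 against 255, 120 and 189. A count per gene shows neither a short frameshift nor the position of reads within a gene, and Hs3st3b1, which carries the cassette, did not have fewer counts throughout the libraries labelled DKO. The group of each library therefore rests on its label, which these counts do not check. Markers of the gland's acini were abundant in all libraries, with 10 of 10 tested, 6 of them with a positive fold change and 1 called higher in the libraries labelled DKO, and a summed level of 8816853 to 10491582 normalized counts in WT and 10360432 to 12595389 in DKO. Here and for the lists below, a gene is called higher or lower where its DESeq2 adjusted p-value was under 0.05. Markers of several other cell types were called, beside 1.02% called higher and 1.88% called lower over all rows tested. Of the 11 granular duct markers 9 were called lower and 1 had a positive fold change (sums of 387284 to 481694 in WT and 312961 to 427782 in DKO), of the 6 myoepithelial markers 6 were called lower (9924 to 10788 and 5370.5 to 7083, in that order), and of the 5 red blood cell markers 5 had a positive fold change and 4 were called higher (863 to 1772 and 2824 to 3167). No marker of T cells, macrophages, B and plasma cells or fibroblasts had a positive fold change. Of the T cell markers 4 of 6 were called lower (34.2 to 212.8 in WT and 4.6 to 12.3 in DKO, with Cd8a at 0 in every DKO library), as were 3 of 6 for macrophages (1576 to 2602 and 1193 to 1583), 2 of 9 for B and plasma cells (5264 to 12393 and 1758 to 9284) and 2 of 5 for fibroblasts (8499.5 to 11697 and 6233 to 8879.5). Of the endothelial (1249 to 1526 and 1460 to 1871) and proliferation markers (373 to 864 and 543 to 1145), 0 of 4 and 0 of 6 were called by DESeq2 (2 and 0 at an unadjusted p-value under 0.05), and 0 by edgeR (3 and 0 unadjusted) and limma-voom (2 and 0). Of all 18606 rows, 2267, 2789 and 2609 were under 0.05 unadjusted with DESeq2, edgeR and limma-voom, in either direction. The part of the cell types above in the values below was not tested. In whole glands fewer cells of a type and less RNA per cell cannot be told apart.

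Cells make serine from an intermediate of glycolysis in a short chain that Phgdh opens, Psat1 continues by adding an amino group from glutamate, and Psph ends by removing a phosphate. The serine hydroxymethyltransferases then split serine into glycine and a single carbon carried by tetrahydrofolate, Shmt1 in the cytosol and Shmt2 in mitochondria. In mitochondria Mthfd2 and Mthfd2l oxidise that carbon, Mthfd1l releases it as formate, and Aldh1l2 oxidises it to CO2 while making NADPH, whereas Mthfd1 does the matching folate steps in the cytosol. Formate and the loaded folates feed purine, thymidylate and methionine synthesis, and serine itself is a building block of proteins and membrane lipids. Several of these genes are textbook targets of ATF4, a transcription factor made when amino acids run short or protein folding is disturbed, and the SMG is a gland that secretes much protein.

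Across the 10 enzymes, those with the largest differences were Psat1 and Mthfd2, each about 5-fold higher in the libraries labelled DKO, and the smallest were those of Mthfd1 and Mthfd2l. The threshold, an adjusted p-value under 0.05 in DESeq2, was passed by 4 of the 10, each higher in DKO (Psat1, Shmt2, Mthfd2 and Aldh1l2). Over all rows tested, 1.02% were called higher and 1.88% lower. The median log2 fold change of the 10 was 0.84, beside 0.0011 over all rows tested, and 9 of 10 were positive. In 6 of the 10 every DKO library lay above every WT library, a pattern found in 9.85% of all rows tested. Since this contrast chose the genes, nothing is read from these shares. The number of the 10 past the threshold fell to 0 without WT 5, 1 without WT 1 or without DKO 5 and 2 without DKO 4. It was 0 in edgeR and in limma-voom, which called 10 and 7 of all rows. At an unadjusted p-value under 0.05, 6 of the 10 were higher with each of these tools, as in DESeq2. Of all 18606 rows, 2267 were under 0.05 unadjusted in DESeq2, 2789 in edgeR and 2609 in limma-voom, in either direction.

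**Figure D1:**
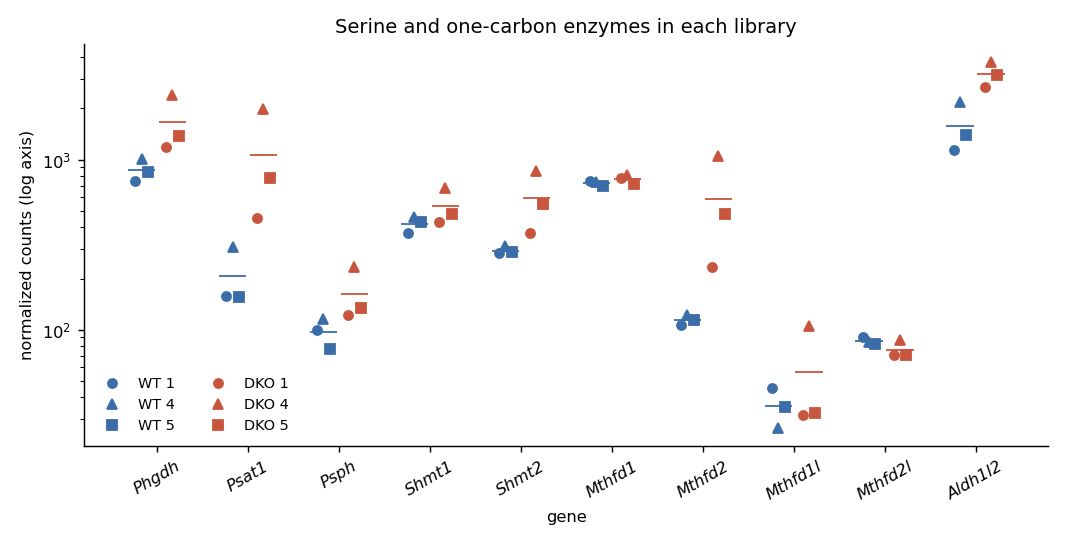
Normalized counts (raw counts divided by the library's size factor, log axis) of each of the 10 genes in each library. Blue points are WT libraries, red points DKO libraries, symbols give the library number and short lines the group means (n = 3). DKO 4 (red triangle) is the highest DKO library for all 10 genes, and for Psat1, Mthfd2, Shmt2, Phgdh, Psph and Aldh1l2 the red points lie above all blue ones.

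Psat1 had the largest fold change of the set. In GRCm38 the gene spans 15904678 to 15947337 of chromosome 19, minus strand, and all gene coordinates given here are of that build. Its normalized counts were 158, 305 and 157 in WT 1, 4 and 5 and 453, 1974 and 781 in DKO 1, 4 and 5. The groups did not overlap, but the DKO libraries lay far apart, with DKO 4 at 4.36 times DKO 1. The means were 207 ± 85.3 and 1069 ± 801 (SD, n = 3), and the log2 fold change of DKO over WT was 2.37 (SE 0.68), or 5.17-fold. DKO 1 alone was 2.19 times the WT mean and DKO 5 was 3.78 times.

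Mthfd2, the mitochondrial methylenetetrahydrofolate dehydrogenase, had the same order of DKO libraries. It spans 83305691 to 83325908 of chromosome 6, minus strand. The WT libraries agreed closely, with 107, 122 and 115 normalized counts, and the DKO libraries held 234, 1046 and 481. All DKO libraries lay above the WT range, although DKO 4 was 4.46 times DKO 1. The means were 115 ± 7.70 in WT and 587 ± 416 in DKO (SD, n = 3), a difference of 2.36 on the log2 scale (SE 0.60), or 5.12-fold. The coefficient of variation was 6.72% among WT libraries and 70.9% among DKO libraries, so the spread lay almost entirely within the DKO group.

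Promoter sequence is shown for Psat1 and Mthfd2, the genes with the largest fold changes, and for Shmt2, the member most like Mthfd2 across the libraries. RefSeq promoter windows of GRCm38.p6 (250 bases before and 50 after a start site) matched 9 of the 10 genes. The 250 bases before the start are printed 5′ to 3′ on the gene's strand, with capitals marking every match, on either strand, to CCAAT, to CACGTG (the E-box) or to TGACNNNGC (the core of the antioxidant response element). They are chr19:15925060-15925309 for Psat1 (the farther upstream of its RefSeq start sites), chr6:83317605-83317854 for Mthfd2 and chr10:127522445-127522694 for Shmt2, all on the minus strand.
Psat1: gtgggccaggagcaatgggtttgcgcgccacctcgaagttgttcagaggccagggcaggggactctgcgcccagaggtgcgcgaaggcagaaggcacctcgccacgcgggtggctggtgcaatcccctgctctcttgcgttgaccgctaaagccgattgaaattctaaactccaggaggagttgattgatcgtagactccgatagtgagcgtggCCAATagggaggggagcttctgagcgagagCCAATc
Mthfd2: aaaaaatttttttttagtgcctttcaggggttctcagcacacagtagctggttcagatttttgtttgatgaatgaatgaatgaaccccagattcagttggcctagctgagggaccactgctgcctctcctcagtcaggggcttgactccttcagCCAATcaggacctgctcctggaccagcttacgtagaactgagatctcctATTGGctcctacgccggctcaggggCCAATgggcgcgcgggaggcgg
Shmt2: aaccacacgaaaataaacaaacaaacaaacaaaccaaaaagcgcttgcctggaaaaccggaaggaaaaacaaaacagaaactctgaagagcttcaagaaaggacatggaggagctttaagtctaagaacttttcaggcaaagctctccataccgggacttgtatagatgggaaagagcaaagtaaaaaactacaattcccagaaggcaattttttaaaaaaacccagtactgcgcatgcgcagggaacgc

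In these windows the Psat1 capitals start at -36 and -6 and those of Mthfd2 at -96, -47 and -22 from the start site, and the Shmt2 stretch has none. GC content was 59.6% for the Psat1 stretch, 52.4% for Mthfd2 and 40.8% for Shmt2, beside a median of 52.4% over 32851 windows. The C/EBP-ATF response element TGATGNAA, searched on both strands, matched in 0 of the 9 genes and in 4.51% of the 27025 genes with a window. The other motifs were chosen after the data were seen. CCAAT matched in 6 of 9 (Phgdh, Psat1, Psph, Shmt1, Mthfd1 and Mthfd2) and in 41.1% of all genes, TGACNNNGC in 2 (Phgdh and Psph) and in 14.0%, and GGGCGG, the GC box, in 6 and in 38.2%. CACGTG matched in 0 and in 8.09%, and TGACGTCA, the cyclic AMP response element, in 0 and in 2.03%, and the letters of TGACNNNGC and TGACGTCA can overlap. A match is a run of letters and not a shown binding site. The windows follow RefSeq start sites and do not cover the rest of the genes. For Psat1 and Mthfd2 they lie inside the gene spans given here, so the 5′ ends of those spans were not searched.

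For all 3 genes of serine synthesis every DKO library lay above every WT library, and the middle enzyme differed most. Phgdh (chromosome 3, 98313170 to 98339990, minus strand) held 746, 1008 and 850.0 normalized counts in WT 1, 4 and 5 and 1184, 2406 and 1385 in DKO 1, 4 and 5. Its groups did not overlap, and the log2 fold change was 0.93 (SE 0.35), which did not pass the threshold. Psph (chromosome 5, 129765558 to 129787449, minus strand) was the least abundant of the 3, with 99.0, 115 and 77.0 in WT and 121, 233 and 135 in DKO. DKO 1 exceeded WT 4 only slightly, and the log2 fold change was 0.75 (SE 0.28), also short of the threshold. Psph shares 452 exon bases with Cct6a on the opposite strand, whose 725 to 989 counts in DKO spanned the 751 to 904 in WT, and without strand the reads of that stretch cannot be assigned.

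The mitochondrial and the cytosolic hydroxymethyltransferase differed in size of change. Shmt2 (chromosome 10, 127517123 to 127522444, minus strand) gave 281, 310.1 and 286 normalized counts in WT 1, 4 and 5 and 368, 860.2 and 548 in DKO 1, 4 and 5. All DKO libraries lay above the narrow WT range, with means of 292 ± 15.6 and 592 ± 249 (SD, n = 3) and a log2 fold change of 1.02 (SE 0.24). Shmt1 (chromosome 11, 60788104 to 60811718, minus strand) had 371, 458 and 429 in WT and 429.8, 686 and 476 in DKO. Here DKO 1 lay inside the WT range, and the log2 fold change was 0.34 (SE 0.18; 95% interval -0.02 to 0.70). Shmt1 shares 184 exon bases with Smcr8 on the opposite strand, and Shmt2 shares 32 with Ndufa4l2, which had no more than 23 counts in any library.

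Among the other folate enzymes, Aldh1l2, which oxidises formyl-tetrahydrofolate in mitochondria, was the most abundant in counts. It lies on chromosome 10 from 83487450 to 83534140, minus strand. The libraries held 1137, 2184 and 1391 normalized counts in WT 1, 4 and 5 and 2685, 3738 and 3163 in DKO 1, 4 and 5. Unlike Mthfd2 it was more even among DKO libraries (coefficient of variation 16.5%) than among WT libraries (34.8%), where WT 4 was 1.92 times WT 1. The groups still did not overlap, and the log2 fold change was 1.02 (SE 0.32). Its exons share 1056 bases with D10Wsu102e on the opposite strand, whose counts were 212 to 260 in WT and 192 to 236 in DKO.

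The remaining enzymes of folate interconversion showed no separation of the groups. Mthfd1, the cytosolic trifunctional enzyme (chromosome 12, 76255298 to 76319803, plus strand), stood at 746, 735 and 699 normalized counts in WT libraries and at 777, 810.0 and 722 in DKO libraries, a log2 difference of 0.08 (SE 0.11; 95% interval -0.13 to 0.30). Mthfd2l, the second mitochondrial dehydrogenase (chromosome 5, 90931117 to 91021368, plus strand), had 91.0, 84.1 and 82.4 in WT and 71.2, 86.8 and 71.5 in DKO. Its log2 fold change of -0.17 (SE 0.25; 95% interval -0.65 to 0.32) was the only negative one of the set. Mthfd1l, the mitochondrial formate synthetase (chromosome 10, 3973118 to 4167081, plus strand), was counted 46, 27 and 39 times in WT and 33, 100 and 28 times in DKO. Only DKO 4 stood out there, its count having an exact 95% Poisson interval of 81.4 to 121.6 (counting error only) against 22.7 to 46.3 in DKO 1. The log2 fold change of Mthfd1l was 0.65 (SE 0.48), and it was -0.16 without DKO 4.

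**Figure D2:**
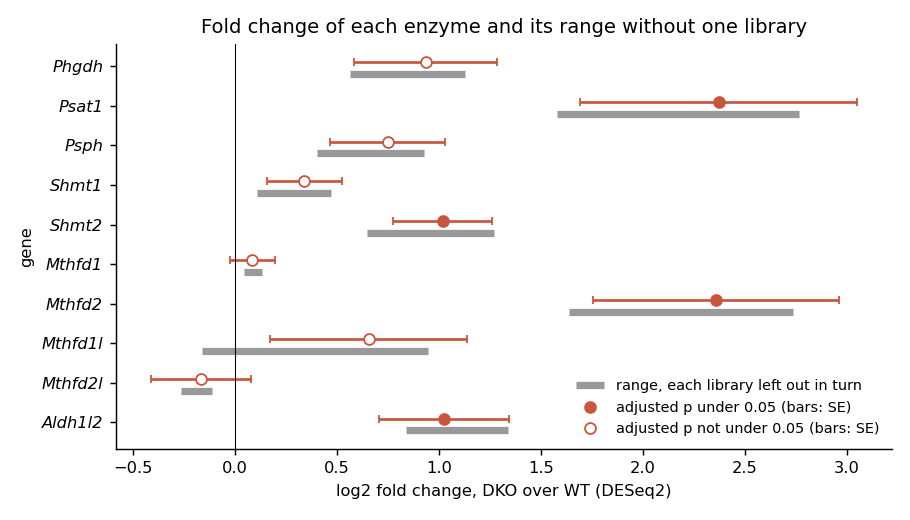
Log2 fold change of DKO over WT for each gene from DESeq2, with bars of 1 SE (red, n = 3 per group), filled where the adjusted p-value was under 0.05. Grey bars span the values with each of the 6 libraries left out in turn. Psat1 (1.58 to 2.76) and Mthfd2 (1.64 to 2.74) stay farthest from 0, and the bar of Mthfd1l runs from -0.16 to 0.95.

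Ratios of enzymes within a library do not depend on how libraries are scaled. The pairs were chosen with the values above known, and the ratios of raw counts are a description. Mthfd2 over its cytosolic counterpart Mthfd1 was 0.143, 0.166 and 0.164 in WT 1, 4 and 5 and 0.302, 1.29 and 0.666 in DKO 1, 4 and 5. All DKO ratios lay above the narrow WT range, with DKO 4 the highest. The counts are not corrected for length, so a ratio compares libraries and not the levels of the paired genes. Shmt2 over Shmt1 was 0.757, 0.677 and 0.666 in WT and 0.857, 1.25 and 1.15 in DKO, again highest in DKO 4. Mthfd2 over Mthfd2l had means of 1.34 ± 0.147 and 7.36 ± 4.42, and Aldh1l2 over the cytosolic Aldh1l1 had means of 2.17 ± 0.514 and 4.16 ± 1.25 (SD, n = 3). None of these ratios overlapped between the groups.

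Within serine synthesis the enzymes did not keep one proportion. Psat1 over Phgdh was 0.212, 0.303 and 0.184 in WT and 0.382, 0.821 and 0.564 in DKO, with no overlap. Psph over Phgdh was 0.133, 0.115 and 0.0906 in WT and 0.103, 0.0969 and 0.0974 in DKO. The first and last enzymes thus kept a ratio inside the WT range in all 3 DKO libraries, while the middle enzyme's share of the chain was larger.

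**Figure D3:**
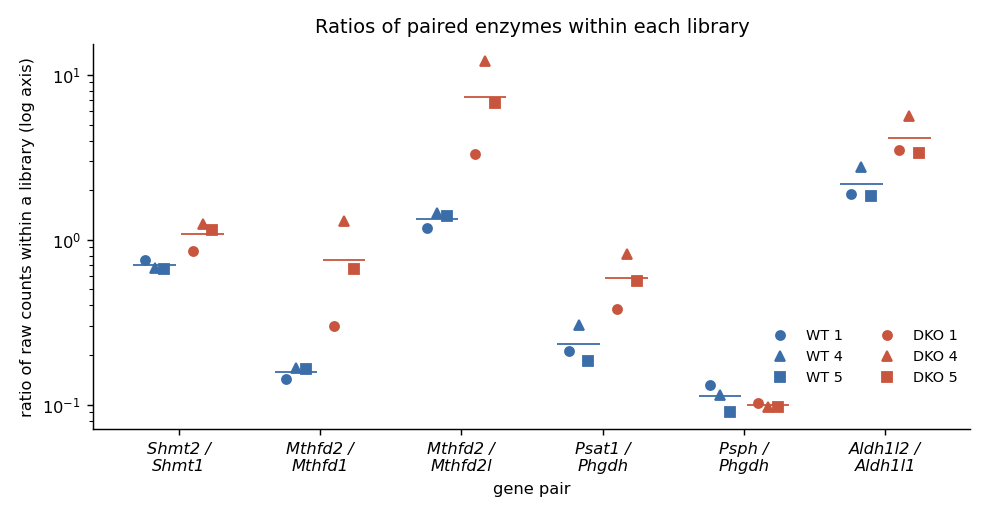
Ratio of the raw counts of 2 genes within each library (log axis), with WT in blue, DKO in red and short lines for the group means (n = 3). The groups are apart for 5 of the 6 pairs, and only Psph over Phgdh overlaps, at 0.0906 to 0.133 in WT and 0.0969 to 0.103 in DKO.

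Levels can be compared between genes only per length of exon, here the joined exons of all annotated transcripts of a gene. Which transcripts were in use was not examined, so the order below holds for this length only. As normalized counts per kb of merged exon in the WT libraries, Phgdh was highest at 349, followed by Aldh1l2 at 209, Mthfd1 at 164, Shmt1 at 108, Shmt2 at 94.0, Psat1 at 48.6, Mthfd2 at 32.9, Psph at 22.4, Mthfd2l at 12.9 and Mthfd1l at 8.03. The ranges of neighbours overlapped for Aldh1l2 with Mthfd1 and for Shmt1 with Shmt2, and for no other neighbours. In the DKO libraries Phgdh (667) and Aldh1l2 (426) stayed first and second by the same measure. By group means Psat1 moved from the sixth place to the third (251), but its DKO libraries spanned 106 to 464, and in DKO 1 it still lay below Shmt1 (111) and Shmt2 (118). By the same means Mthfd1 (173) went from the third to the fifth and Shmt1 (137) from the fourth to the seventh. Mthfd2 (168) rose above Shmt1 in the order but its lowest DKO library, at 67.2, lay below the lowest of Shmt1, at 111, so the pair was not separated beyond the spread.

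The order of the libraries was shared by most of the enzymes. DKO 4 was the highest DKO library for 10 of 10, as it was for 37.1% of all rows tested, and the order DKO 4, DKO 5, DKO 1 held for 9 of 10 and for 19.6% of rows. Among WT libraries WT 4 was the highest for 7 of 10 (34.9% of rows). DKO 1 lay above every WT library for 7 of the 10 genes, DKO 5 for 7 and DKO 4 for 9, against 25.6%, 30.4% and 33.8% of rows. The ratio to the WT mean had a median over the 10 genes of 1.25 in DKO 1, 1.49 in DKO 5 and 2.59 in DKO 4. In DKO 4 the summed acinar markers were the highest of the DKO libraries (12595389) and the granular duct markers stood at 319085, near the low end of that group. The sum of every other marker list was highest in DKO 1 or DKO 5, and the part of cell content in this order was not tested. Without DKO 4 the median log2 fold change of the 10 genes was 0.48, 8 of 10 were positive, and the number past the threshold was 2 (Phgdh and Mthfd2).

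Over the 6 libraries Pearson's r of log2(normalized count + 1) was 0.98 for Psat1 with Mthfd2, 0.99 for Mthfd2 with Shmt2 and 0.99 for Phgdh with Psat1. Mthfd1 gave 0.63 with Mthfd2, and Mthfd2l gave -0.24. These values come from the same libraries, share their depth and group difference, and are given with no test. Across all rows with a mean of at least 50 normalized counts, the 5 most like Psat1 were Xpot (r = 0.997), Hibadh, Slc7a1, Msrb1 and Tbc1d20, the last at 0.993. The 5 most like Mthfd2 were Aifm1 (r = 0.997), Slc3a2, Cdon, Shmt2 and Gpt2, the last also at 0.993. Their own log2 fold changes were smaller than those of Psat1 and Mthfd2 and ranged from 0.23 (Aifm1) to 1.13 (Slc3a2).

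Other genes of serine, glycine, folate and methionine metabolism were read from the same fit. Of 43 listed, 39 had enough counts to be tested, 36 received an adjusted p-value, and 4 passed the DESeq2 threshold as higher in the libraries labelled DKO and 0 as lower, beside 1.02% and 1.88% of all rows tested. At an unadjusted p-value under 0.05, DESeq2 gave 11 higher and 0 lower, edgeR 11 and 3, and limma-voom 10 and 4. Beside them stood 2267, 2789 and 2609 of all 18606 rows, in that order and in either direction. After adjustment edgeR and limma-voom called 0 of the 39. With 1 library left out the number called was between 1 (without WT 1, WT 5 or DKO 5) and 7 (without DKO 1). The median log2 fold change of the 39 was 0.12. This list too was drawn up with results of these data known.

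Among the amino acid carriers, Slc1a4, which takes up serine, alanine and cysteine, had the smallest adjusted p-value. Its normalized counts were 202, 214 and 205 in WT 1, 4 and 5 and 373, 679 and 661 in DKO 1, 4 and 5. All DKO libraries lay well above the narrow WT range, and Slc1a4 rose by 1.46 on the log2 scale (SE 0.21, DESeq2 adjusted p = 7.35e-09), a call that held in 6 of 6 fits with a library left out. Slc1a5, a glutamine and neutral amino acid carrier, held 2516, 2902 and 2029.6 in WT and 2954, 4024 and 3855 in DKO, a log2 difference of 0.54 (SE 0.15, DESeq2 adjusted p = 0.0190). DKO 1 there was close to WT 4, and the call held in 2 of 6 such fits. The sideroflexins, which carry serine into mitochondria, did not pass the threshold, with log2 fold changes of 0.29 for Sfxn1, 0.10 for Sfxn2 and -0.49 for Sfxn3.

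Cbs, which joins serine to homocysteine on the way to cysteine, was rare in all libraries. It had 6, 7 and 8 counts in WT and 29, 26 and 29 in DKO, with no overlap and a log2 difference of 2.14 (SE 0.54, DESeq2 adjusted p = 0.00667), called in 3 of 6 fits with a library left out. For Gnmt, which methylates glycine, the WT libraries gave 352, 465 and 376 normalized counts and the DKO libraries 491, 675 and 623. DKO 1 lay just above WT 4, and Gnmt rose by 0.58 on the log2 scale (SE 0.16, DESeq2 adjusted p = 0.0195), called in 2 of 6. By edgeR the adjusted p-values of Slc1a4, Cbs, Gnmt and Slc1a5 were 0.0707, 0.0765, 0.159 and 0.195, and by limma-voom they were 0.0953, 0.0826, 0.205 and 0.224.

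The remaining genes of this list did not pass the threshold, and the most abundant in several roles show the size of their differences. Dld of the glycine cleavage system had a log2 fold change of 0.20 (SE 0.11) and Ggh, a folate hydrolase, 0.25 (SE 0.14). Mat2b of the methionine cycle, at 0.16 (SE 0.12), and Ptdss1, which makes phosphatidylserine, at 0.08 (SE 0.12), were smaller still. Gldc (5 counts), Mat1a (6), Ftcd (1) and Sds (0), each summed over the 6 libraries, were too rare to be tested.

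**Figure D4:**
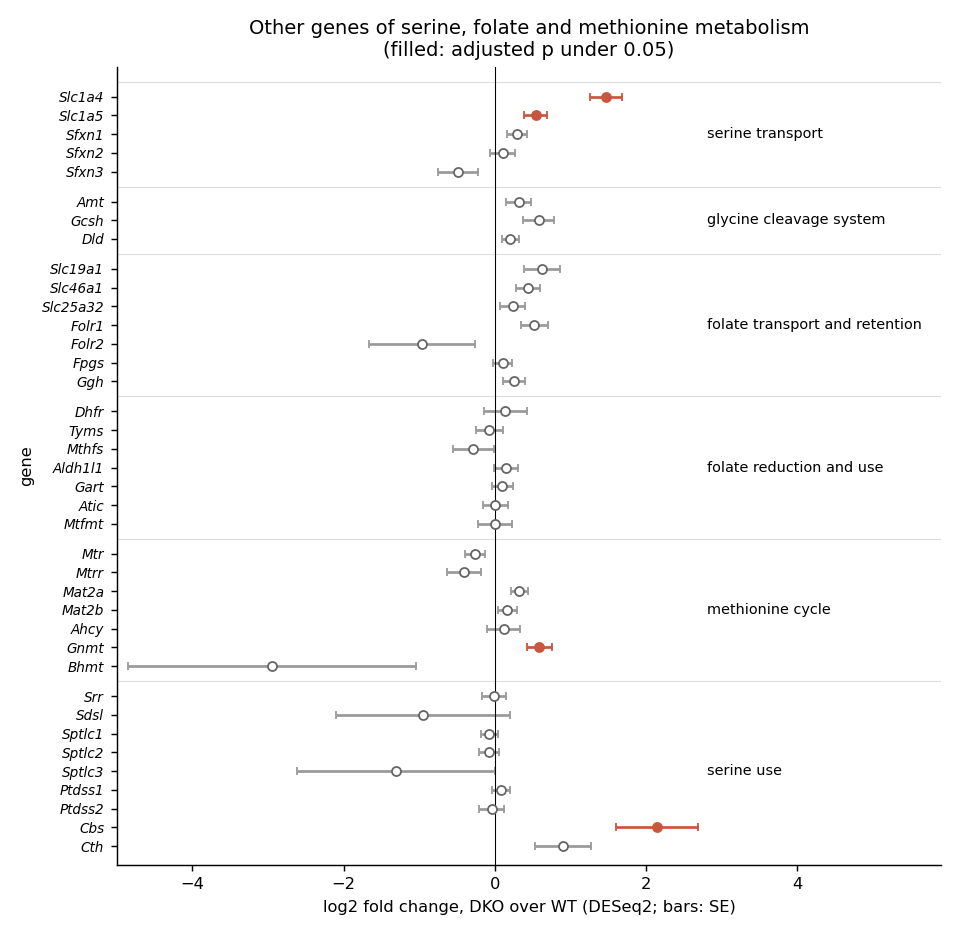
Log2 fold change of DKO over WT with bars of 1 SE (DESeq2, n = 3 per group) for 38 of the 39 tested genes of serine, glycine, folate and methionine metabolism, by role. Filled red points mark an adjusted p-value under 0.05, reached by 4, Slc1a4, Slc1a5, Gnmt and Cbs, and the widest bars belong to the rare genes Bhmt, Sptlc3 and Sdsl.

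For values side by side, 2 further lists were read from the same fit. Both were drawn up with results of these data known. For each list 3 genes were picked for their large fold changes, so their adjusted p-values are a description and no support. Of 20 genes listed as ATF4 and its targets, 19 had a positive fold change and 10 were called higher in the libraries labelled DKO, beside 1.02% of all rows, with a median log2 fold change of 0.79. The number called was 2 to 14 when 1 library was left out (2 without WT 1, 3 without WT 5, 4 without DKO 5). Chac1, which degrades glutathione, had the largest, 3.06 (SE 0.94, DESeq2 adjusted p = 0.0390), at 29.7, 74.3 and 60.0 normalized counts in WT libraries and 99.6, 281 and 986 in DKO libraries. Its highest library was DKO 5 and not DKO 4, as for Trib3, a pseudokinase induced by stress, whose groups overlapped, at 1.77 (SE 0.45, DESeq2 adjusted p = 0.00589). Slc7a5, an amino acid exchanger, was highest in DKO 4, with 673, 966 and 702 in WT and 1357, 3416 and 2382 in DKO (log2 fold change 1.61, SE 0.40, DESeq2 adjusted p = 0.00479). DKO 4 was the highest DKO library for 11 of these 20 genes, beside 37.1% of all rows and 42.5% of rows with a mean of at least 50 normalized counts.

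Of 20 cytosolic aminoacyl-tRNA synthetases, which charge transfer RNAs with amino acids, 19 had a positive fold change and 11 were called higher, beside 1.02% of all rows, with a median of 0.49. The number called was 0 to 12 when 1 library was left out (0 without WT 1, 1 without WT 5, 3 without DKO 4). Rars (0.85, SE 0.19, DESeq2 adjusted p = 0.00130), Gars (0.80, SE 0.19, adjusted p = 0.00410) and Sars, the enzyme for serine (0.65, SE 0.18, adjusted p = 0.0155), had the largest log2 fold changes. The WT libraries held 1286, 1476 and 1380.2 normalized counts of Sars and the DKO libraries 1599, 2893 and 2012, in the library order of Psat1 among the DKO libraries. DKO 4 was the highest DKO library for 19 of these 20 genes, beside the same 37.1% and 42.5% of rows. In edgeR and limma-voom 0 genes of either list passed the threshold. At an unadjusted p-value under 0.05, 15 and 14 of the ATF4 list and 14 and 14 of the synthetases were higher, in that order. Of all 18606 rows, 2789 and 2609 were under 0.05 unadjusted, in either direction.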

How the data were processed

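Libraries were unstranded (Nextera XT) and sequenced on a HiSeq2500. Raw counts per gene symbol were deposited by the authors as an unfiltered and a filtered table. The submitters' processing notes list STAR 2.5.2a, DESeq2, edgeR and limma and the builds GRCh38, GRCm38 and mm10, with no role. The unfiltered counts were used. Rows with at least 10 counts in all were fitted in DESeq2 1.42.0 (R 4.3.3; two-sided Wald test, median-of-ratios size factors, unshrunken fold changes, default filters), with Benjamini-Hochberg adjustment over all rows and a threshold of 0.05. Alternatives were edgeR 4.0.16 (quasi-likelihood), limma-voom 3.58.1, other scalings, filters, a replicate block and leaving out each library. The fits were tested on simulated data.

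The 10 genes, the other lists and the motifs were chosen with earlier results of these data known. Named genes were all 10, partners past the threshold, the most abundant partner per role (1 of them is not reported here), the 3 largest changes with a mean of at least 50 normalized counts per compared list, and the 5 rows most like Psat1 and Mthfd2. Jchain and Adgre1 were matched as Igj and Emr1 by RefSeq synonyms. Coordinates and exons are from GENCODE M21 (GRCm38), sequences from RefSeq. Chi-square per degree of freedom between libraries of a group was 18.3 to 47.6, and each library was counted as 1 replicate. These values do not show whether the libraries came from separate animals.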

Additional observations from a re-analysis of the deposited data

How the results depend on the processing

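Across 400 refits of single named genes the direction changed in 5. Mthfd1l was at -0.16 without DKO 4 (up to 0.95 without DKO 1), and with total counts as size factors Mthfd1 was at -0.15, Mat2b at -0.077, Dld at -0.034 and Ptdss1 at -0.16 (log2). Total counts moved the median of all rows to -0.23, so these 4 stayed above that median. That scaling called 1472 rows, 62 higher and 1410 lower, against 539, 189 higher and 350 lower in the main fit. It called 4 of 20 synthetases against 11, 5 of the 10 enzymes against 4, 11 of the ATF4 list against 10, and 4 partners in both. The median log2 fold change of the 10 enzymes was 0.59 with total counts as size factors. It was 0.79 to 0.85 under the other tests, filters and scalings. With a library left out it ran from 0.48 (without DKO 4) to 1.04 (without DKO 1).

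The numbers of calls depended on the tool, on the scaling and on single libraries, and so did the genes called. Phgdh, short of the threshold in the main fit, passed with total counts as size factors and without DKO 1 or DKO 4. It also passed with the replicate block in DESeq2 and in edgeR. Shmt2 did not pass with that block in edgeR, nor Aldh1l2 without DKO 1 or DKO 4. By edgeR 0 of the 10 enzymes, 0 partners, 0 of the ATF4 list and 0 synthetases were called, with 10 of all rows. By limma-voom it was the same with 7 rows. With each tool 6 of the 10 enzymes were higher at an unadjusted p-value under 0.05, as with DESeq2. Of all rows, 2789, 2609 and 2267 were at that unadjusted level with edgeR, limma-voom and DESeq2, in either direction. Leaving out a library gave 0 to 4 of the 10 enzymes (0 without WT 5, where 5 were at an unadjusted p-value under 0.05, 1 without WT 1 or DKO 5, 2 without DKO 4), 1 to 7 partners, 2 to 14 of the ATF4 list, 0 to 12 synthetases (0 without WT 1, where 12 were at an unadjusted p-value under 0.05) and 149 to 817 of all rows. Of all rows, 1429 without WT 5 and 1428 without WT 1 were at that unadjusted level, in either direction. The cause was not tested.

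The replicate block treats libraries with the same number as pairs. Deviations from the group means correlated at -0.13, -0.02 and -0.26 for numbers 1, 4 and 5. Libraries with different numbers gave values from -0.39 (WT 4 with DKO 1) to 0.45 (WT 5 with DKO 1). With 3 libraries per group the deviations are not free to vary, so these values cannot show whether the numbers pair the libraries. The labels do not say so either. With the replicate block DESeq2 called 343 rows, 5 of the 10 enzymes, 3 partners, 12 of the ATF4 list and 12 synthetases, and edgeR called 128 rows, 4 enzymes, 1 partner, 8 of the ATF4 list and 2 synthetases. Depth limits Mthfd1l and Cbs, which had 100 and 29 counts at most in a library.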

Other observations

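Some partner genes separated the groups without passing the threshold, and they were picked after their values were seen. Of the 39 tested, 12 had every DKO library above every WT library and 3 had every DKO library below, beside 9.85% and 10.5% of all rows. The 12 include Slc1a4, Slc1a5, Gnmt and Cbs, which did pass the threshold. The 3 include Bhmt, which was near the floor, with 4, 3 and 2 counts in WT and 0, 1 and 0 in DKO. Folr1, a folate receptor, was at 231, 345 and 362 normalized counts in WT 1, 4 and 5 and at 448, 446 and 449.7 in DKO 1, 4 and 5, with the DKO libraries nearly equal and a log2 difference of 0.52 (SE 0.18, DESeq2 adjusted p = 0.0741). Slc19a1, the reduced folate carrier, had 111, 109.6 and 124 against 125, 216 and 189 (0.62, SE 0.24, DESeq2 adjusted p = 0.130). Gcsh, a carrier protein of the glycine cleavage system, had 209.8, 174 and 182 against 250.5, 364 and 228 (0.58, SE 0.21, DESeq2 adjusted p = 0.0980). Mtr, methionine synthase, lay below instead, with 464, 490.1 and 421 against 407, 365 and 376 (-0.26, SE 0.13, DESeq2 adjusted p = 0.370).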
